A study of Rattus norvegicus with 12 samples.

Results

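The microRNA miR-7 and the microRNA miR-671 were followed here through 5 names of the deposited count tables: miR-7a-5p, miR-7a-1-3p, miR-7a-2-3p, miR-7b and miR-671. They were found by name, as every entry that reads rno-miR-7a, rno-miR-7b or rno-miR-671 with any locus and strand suffix, and they are 5 of 685 miRNA names among 805 small RNA names in all. The libraries came from primary cortical neurons of Sprague Dawley rats at embryonic day 17. The cultures received lentivirus after 10 days in vitro and were lysed after 14. It delivered a short hairpin RNA (shRNA) that targeted Stau2 (shStau2), 1 that targeted Pum2 (shPum2) or 1 with no target (shNTC), with 4 libraries in each group, so every group, the controls included, was transduced and expressed a hairpin. Stau2 encodes the double-stranded RNA-binding protein Staufen2 and Pum2 the mRNA-binding protein Pumilio 2, and the series used shPum2 as a second control, for changes that any shRNA brings. Small RNA tables hold no mRNA, so neither knockdown was checked here.

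A miRNA is cut from a hairpin precursor, and in most hairpins 1 strand (the guide) is loaded into Argonaute while its partner (the passenger) is mostly degraded. miR-7 is an old and highly conserved miRNA that is abundant in neurons and endocrine cells. In mammalian brain it belongs to a circuit of non-coding RNAs: the circular RNA Cdr1as carries many sites for miR-7 and a nearly perfectly paired site for miR-671, through which miR-671 can direct slicing of Cdr1as. In mice the long non-coding RNA Cyrano (Oip5-as1) pairs with miR-7 and directs its decay. Cdr1as and Cyrano are not miRNAs and were not analysed here.

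The mature sequences show which strands the names stand for, and capitals mark the seed, bases 2 to 8, which selects targets. They are those of RefSeq for assembly GRCr8 and all 5 names matched an entry.
miR-7a-5p: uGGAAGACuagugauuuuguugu
miR-7b: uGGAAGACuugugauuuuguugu
miR-7a-1-3p: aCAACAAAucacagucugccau
miR-7a-2-3p: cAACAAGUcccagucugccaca
miR-671: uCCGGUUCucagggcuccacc
The guide strands miR-7a-5p and miR-7b share the seed GGAAGAC and were identical at 22 of 23 bases, the exception being A10U (counted from the 5′ end of miR-7a-5p). A difference of 1 base means that reads of either could have been assigned to the other by the authors' counting, which limits how far their values can be read separately. The passenger strands miR-7a-1-3p and miR-7a-2-3p have different seeds. The seed of miR-7a-1-3p recurred in miR-3065-5p, which averaged 15.7 CPM (the count per library scaled to a common total), and the seeds of miR-7a-2-3p and miR-671 in none of the 693 mature names of the RefSeq table.

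The hairpins show why the passenger strands can be told apart by locus and the guide cannot, and capitals now mark the annotated mature strands.
mir-7a-1: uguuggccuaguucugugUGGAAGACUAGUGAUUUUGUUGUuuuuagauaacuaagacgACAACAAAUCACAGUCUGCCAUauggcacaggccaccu
mir-7a-2: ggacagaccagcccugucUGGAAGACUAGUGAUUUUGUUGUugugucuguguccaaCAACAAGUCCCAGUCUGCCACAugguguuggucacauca
mir-7b: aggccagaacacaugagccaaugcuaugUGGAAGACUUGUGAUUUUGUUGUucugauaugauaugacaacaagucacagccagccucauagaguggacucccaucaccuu
mir-671: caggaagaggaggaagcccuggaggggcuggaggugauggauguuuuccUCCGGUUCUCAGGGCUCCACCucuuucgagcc
Identical copies of miR-7a-5p come from mir-7a-1, on chromosome 17 from 6278692 to 6278788 on the plus strand of GRCr8, and from mir-7a-2, on chromosome 1 from 142215800 to 142215894 on the plus strand. The first lies within the span of Hnrnpk, which encodes an RNA-binding protein, and the second within that of a long non-coding RNA, LOC120099863. The miR-7b hairpin lies on chromosome 9 from 1167436 to 1167545 on the plus strand, within the span of the pseudogene Rpl35l3. RefSeq lists mir-7a-2 and mir-7b under the symbols Mir8 and Mir9, with Mir7a-2 and Mir7b as synonyms. The miR-671 hairpin lies on chromosome 4 from 11473194 to 11473274 on the minus strand, within the span of Chpf2, which encodes a chondroitin-synthesising enzyme. Whether these positions are exonic or intronic was not analysed here, and the counts themselves were made by the authors on another build, Rnor 6.0.

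The sequence of the name miR-671 occupied bases 50 to 70 of its 81-base hairpin, on the 3′ arm. In human and mouse the strand known to direct slicing of Cdr1as is miR-671-5p, from the 5′ arm. The values below for miR-671 are therefore those of the partner of the Cdr1as-directed strand, and the 5′ strand itself was not analysed here.

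Each library held 3836349 to 5415763 counts in all, and all 5 names passed the filter on low counts that left 628 miRNA names for testing. Levels below are CPM after trimmed mean of M-values (TMM) scaling, which are shares of a library and not amounts per cell. A floor of 3 counts corresponded to between 0.588 and 0.763 CPM. A list of 9 miRNAs known from neurons, among them miR-124-3p, miR-128-3p and miR-9a-5p, summed to 334028 to 380834 CPM in shStau2, 323926 to 387336 in shPum2 and 320408 to 372363 in shNTC libraries, none of the 9 was at 0, and none passed the tests described below in any comparison. The 3 miRNAs of an astrocyte list (miR-21-5p, miR-23a-3p and miR-27a-3p) summed to 2510 to 3893, 3001 to 5296 and 4364 to 7318 CPM in shStau2, shPum2 and shNTC libraries, so that shStau2 and shNTC did not overlap, and 3 of 3 fell in shStau2 against shNTC when the replicate number was a term of the fit, where 24 of all 628 miRNAs fell. In that fit 1 of the 3 also fell in shPum2 against shNTC, miR-23a-3p, the only miRNA of the 628 called there, and 0 of 3 passed in shStau2 against shPum2. Summed markers of blood or microglia stood at 129 to 262, 214 to 325 and 190 to 384 CPM in the same groups, of oligodendrocytes at 252 to 278, 233 to 406 and 219 to 336 CPM, of vessels or mesenchyme at 572 to 832, 637 to 1103 and 664 to 996 CPM, and miR-375-3p, known from endocrine cells, at 16.1 to 40.4, 12.8 to 37.7 and 14.5 to 45.0 CPM. With the replicate number in the fit, 1 of 4 tested blood or microglia markers and 1 of 7 vessel or mesenchyme markers fell in shStau2 against shNTC. In shStau2 against shPum2, 2 of 4 blood or microglia markers fell (median log2 fold change of the 4 -0.50), where 15 of all 628 miRNAs fell. The other markers of these lists did not pass in any comparison, and without the replicate number 0 markers of any list passed. In bulk libraries fewer cells of a type and less of a miRNA per cell cannot be told apart, and the part of these marker differences in the miR-7 values was not tested.

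The miR-7 guide strand was among the most abundant miRNAs of these neurons. Over the 12 libraries miR-7a-5p averaged 12970 CPM and ranked 13th or 14th in each of them, with 43868 to 67325 counts a library. miR-7b averaged 1154 CPM and ranked between 65 and 85. The passenger strands were far lower, miR-7a-1-3p at a mean of 128 CPM and miR-7a-2-3p at 60.0 CPM, and miR-671 was the lowest at 54.6 CPM, with 189 to 356 counts a library. By mean level the order was miR-7a-5p, miR-7b, miR-7a-1-3p, miR-7a-2-3p, miR-671, and only the last 2 overlapped in their ranges (43.7 to 74.9 CPM for miR-7a-2-3p and 39.2 to 82.6 CPM for miR-671). The strands are 21 to 23 bases long, and the efficiency with which the kit captured each was not measured.

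**Figure D1:**
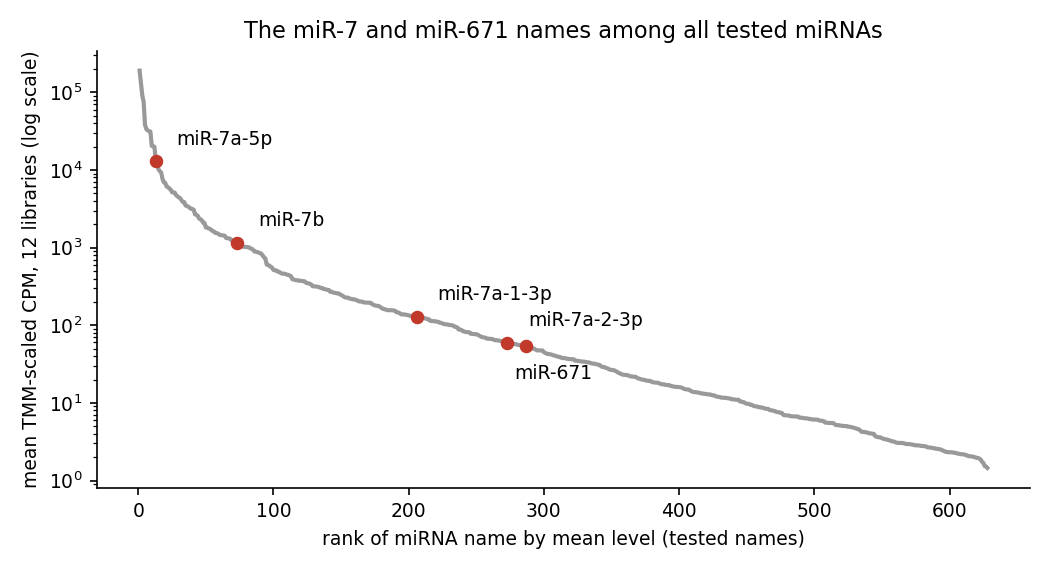
Mean TMM-scaled CPM over 12 libraries (log scale) of each of the 628 tested miRNA names against its rank, with the 5 miR-7 and miR-671 names in red. The guide miR-7a-5p stands 13th, miR-7b 73rd, and the passenger strands and miR-671 between 206th and 287th.

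The level of miR-7a-5p was 15274, 12326, 13088 and 16025 CPM in shStau2 replicates 1 to 4, 12510, 10868, 11611 and 12929 CPM in shPum2, and 12263, 11896, 11450 and 15404 CPM in shNTC. Replicate 4 was the highest library of every group, and the 3 groups overlapped. The means were 14178 ± 1754 CPM in shStau2, 11979 ± 923 in shPum2 and 12753 ± 1798 in shNTC (SD, n = 4). For miR-7b the libraries held 1219, 1068, 927 and 1196 CPM in shStau2, 1240, 1079, 1007 and 1284 CPM in shPum2, and 1247, 1208, 986 and 1384 CPM in shNTC. Here replicate 3 was the lowest in every group, and the means ran the other way, at 1102 ± 135, 1153 ± 131 and 1206 ± 165 CPM in shStau2, shPum2 and shNTC. The seed that both share summed to 15281 ± 1861, 13132 ± 1036 and 13960 ± 1937 CPM in the same groups, with the groups overlapping.

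**Figure D2:**
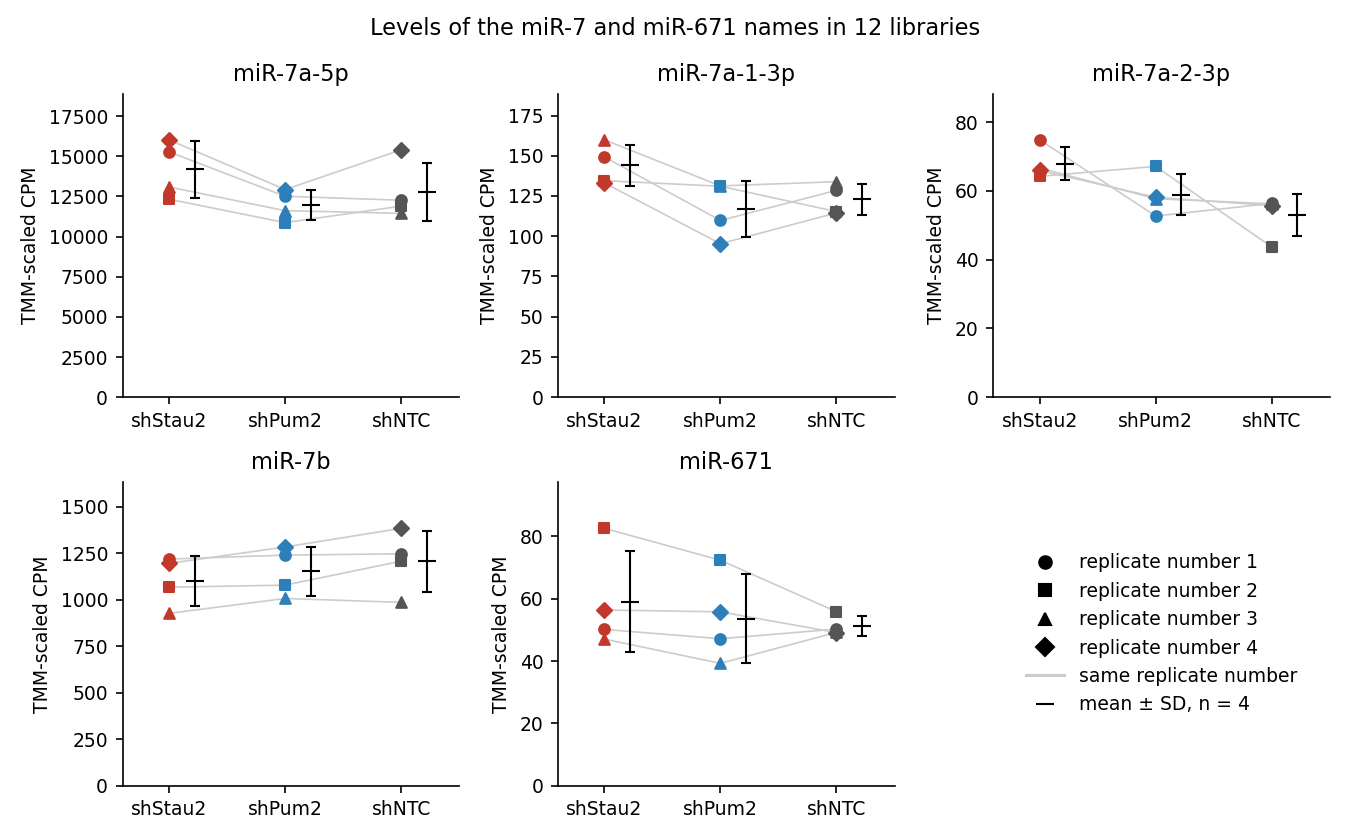
TMM-scaled CPM of the 5 names in each library, by group (left to right shStau2, shPum2, shNTC); markers and grey lines follow replicate numbers, and black bars give the mean ± SD of 4 libraries. Replicate 4 is the highest library of each group for miR-7a-5p, and replicate 2 for miR-671.

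Libraries with the same replicate number resembled each other across groups, and for the guide strands the number carried most of the scatter. It accounted for 84.1% of the within-group variance of log2 CPM of miR-7a-5p and 94.3% of that of miR-7b. The median over all tested miRNAs was 56.8%. With miR-671 the share was 77.8%, with miR-7a-1-3p 64.4% and with miR-7a-2-3p 5.93%. These shares are not corrected for degrees of freedom, so a number with no effect would still take up part of the variance. The within-group SD of log2 CPM was 0.17 for miR-7a-5p and 0.18 for miR-7b, against a median of 0.25 over all tested. After the number was taken out it was 0.08 and 0.05, against a median of 0.17. Tests are therefore given without the replicate number, and with it as a block where that changes a call or bears on one.

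The passenger strand of mir-7a-1 stood highest in shStau2. The level of miR-7a-1-3p was 149, 135, 160 and 133 CPM in shStau2, 110, 131, 131 and 95.3 CPM in shPum2, and 128, 115, 134 and 115 CPM in shNTC. All 4 shStau2 libraries lay above all 4 shPum2 libraries, while shStau2 and shNTC overlapped. Means were 144 ± 12.8, 117 ± 17.5 and 123 ± 9.65 CPM in shStau2, shPum2 and shNTC. The passenger strand of mir-7a-2, miR-7a-2-3p, was at 74.9, 64.3, 66.7 and 66.0 CPM in shStau2, 52.7, 67.1, 57.7 and 58.2 CPM in shPum2, and 56.4, 43.7, 56.3 and 55.7 CPM in shNTC. All 4 shStau2 libraries lay above all 4 shNTC libraries, and shPum2 overlapped both. Its means were 67.9 ± 4.73, 58.9 ± 6.0 and 53.0 ± 6.21 CPM in shStau2, shPum2 and shNTC.

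For miR-671 the libraries gave 50.1, 82.6, 47.0 and 56.4 CPM in shStau2, 47.2, 72.3, 39.2 and 55.8 CPM in shPum2, and 50.3, 55.8, 49.2 and 49.1 CPM in shNTC. Replicate 2 was the highest library of every group, and by a wide margin in shStau2 and shPum2. The means were 59.0 ± 16.2, 53.6 ± 14.2 and 51.1 ± 3.19 CPM in shStau2, shPum2 and shNTC, and all groups overlapped.

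In shStau2 against shNTC, which asks what knockdown of Stau2 changes, the 3 strands from the mir-7a loci and miR-671 stood higher and miR-7b lower, none of them past the threshold. edgeR's quasi-likelihood test, adjusted by Benjamini-Hochberg over the 628 miRNAs and called at 0.05, called 0 of the 5 names without a block, where 0.318% of all miRNAs were called, and 1 of the 5 had an unadjusted p under 0.05, where 11.3% of all miRNAs did. With the replicate block it called 0 of the 5, against 6.21% of all miRNAs, and 3 of the 5 (the mir-7a strands) had an unadjusted p under 0.05, against 22.5% of all. DESeq2 called 0 of the 5 without the block, against 4.29% of the 420 miRNAs to which it gave an adjusted p. With the block it also called 0 of the 5, against 9.03% of 421 such miRNAs. The passenger miR-7a-2-3p was nearest to the threshold, with a log2 fold change of 0.36 (SE 0.12, 95% interval 0.10 to 0.62, edgeR adjusted p = 0.253, and adjusted p = 0.0517 with the block), higher in 4 of 4 same-number pairs. It passed with the block under RLE and upper-quartile scaling (adjusted p = 0.0453 and 0.0280). For this name the replicate number carried 5.93% of the within-group variance. Its SD of log2 CPM was 0.14 before the number was taken out and 0.17 after.

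The guide miR-7a-5p had a log2 fold change of 0.15 in shStau2 against shNTC (SE 0.11, 95% interval -0.07 to 0.38, edgeR adjusted p = 0.632), higher in 4 of 4 same-number pairs by 0.32, 0.05, 0.19 and 0.06. For miR-7a-1-3p it was 0.23 (SE 0.12, interval -0.03 to 0.49, edgeR adjusted p = 0.509), and its same-number differences were 0.22, 0.22, 0.26 and 0.22. Counting error was wider than the spread of these differences. Its 95% Poisson interval ran from 138 to 161 CPM in shStau2 replicate 1 and from 119 to 139 CPM in shNTC replicate 1. For miR-7b the log2 fold change was -0.13 (SE 0.12, interval -0.39 to 0.13, edgeR adjusted p = 0.753), lower in 4 of 4 pairs. With the block the interval was 0.02 to 0.28 for miR-7a-5p and 0.03 to 0.42 for miR-7a-1-3p (edgeR adjusted p = 0.154 for each). For miR-7b it was then -0.27 to 0.02 (adjusted p = 0.287). Differences that point the same way in all 4 pairs were common in this comparison, at 16.1% of all tested miRNAs for higher and 14.5% for lower. Groups of libraries that did not overlap, as those of miR-7a-2-3p, were seen for 4.3% of all miRNAs with shStau2 higher. For miR-671 the log2 fold change was 0.21 (SE 0.19, interval -0.20 to 0.62, edgeR adjusted p = 0.754), and it was -0.0012 without shStau2 replicate 2.

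In shPum2 against shNTC, which asks what another targeting shRNA changes, edgeR called 0 of the 5 names, with or without the block, and 0 of the 5 had an unadjusted p under 0.05. Of all miRNAs 0% were called without the block and 0.159% with it, and 1.43% and 7.32% had an unadjusted p under 0.05. DESeq2 called 0 of the 5 as well, where it called 0% of 626 miRNAs without the block and 0.318% of 628 with it. In none of the 5 were the groups separate, as they were for 1.11% of all miRNAs. The log2 fold changes were -0.09 for miR-7a-5p (95% interval -0.31 to 0.13), -0.08 for miR-7a-1-3p (-0.34 to 0.19) and -0.07 for miR-7b (-0.32 to 0.19). They were 0.15 for miR-7a-2-3p (-0.11 to 0.41) and 0.07 for miR-671 (-0.34 to 0.48). Without a single library the sign turned for 4 of these 5 names, all but miR-7a-2-3p.

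In shStau2 against shPum2, the comparison in which both groups had a targeting shRNA, edgeR called the guide miR-7a-5p as higher with the replicate block and not without it. Its log2 fold change was 0.24 (SE 0.06, 95% interval 0.11 to 0.37, edgeR adjusted p = 0.0348 with the block), higher in 4 of 4 pairs by 0.29, 0.18, 0.17 and 0.31. Without the block the same difference did not pass (SE 0.11, interval 0.02 to 0.47, adjusted p = 0.473). Against shNTC with the block, miR-7a-5p differed by 0.15 in shStau2 and by -0.08 in shPum2, neither called, so both sides entered the difference. Its partner from mir-7a-1, miR-7a-1-3p, differed by 0.31 with the block (SE 0.09, interval 0.11 to 0.50, edgeR adjusted p = 0.0682), higher in 4 of 4 pairs. So 1 of the 5 names was called with the block, where 3.98% of all miRNAs were called in either direction and 1.59% as higher, and 0 of the 5 without it, where 0.478% were, all of them lower. At an unadjusted p under 0.05 stood 2 of the 5 in either fit, miR-7a-5p and miR-7a-1-3p, against 9.39% of all miRNAs without the block and 19.7% with it. DESeq2 called 0 of the 5 without the block, against 1.12% of the 626 miRNAs to which it gave an adjusted p. With the block it called both miR-7a-5p and miR-7a-1-3p (adjusted p = 0.0499 for each), against 7.05% of 482 such miRNAs. The call of miR-7a-5p sat close to the threshold: with the block it was lost with library-total scaling (adjusted p = 0.0918) and without replicate number 1, 3 or 4 (0.179, 0.174 and 0.188), and kept without number 2 (0.0279). In the same fit 2 of 4 blood or microglia markers fell, and their part in the miR-7a-5p result was not tested.

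The other names in shStau2 against shPum2 did not pass. The log2 fold change was 0.21 for miR-7a-2-3p (95% interval -0.05 to 0.46), 0.14 for miR-671 (-0.27 to 0.55) and -0.06 for miR-7b (-0.32 to 0.19). Although small, the miR-7b difference was negative in 4 of 4 same-number pairs, as it was against shNTC, where shStau2 is the shared group. Of all tested miRNAs 13.2% were lower in 4 of 4 pairs here and 14.0% higher. All 4 shStau2 libraries lay above all 4 shPum2 libraries for miR-7a-1-3p, as for 2.23% of all miRNAs.

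**Figure D3:**
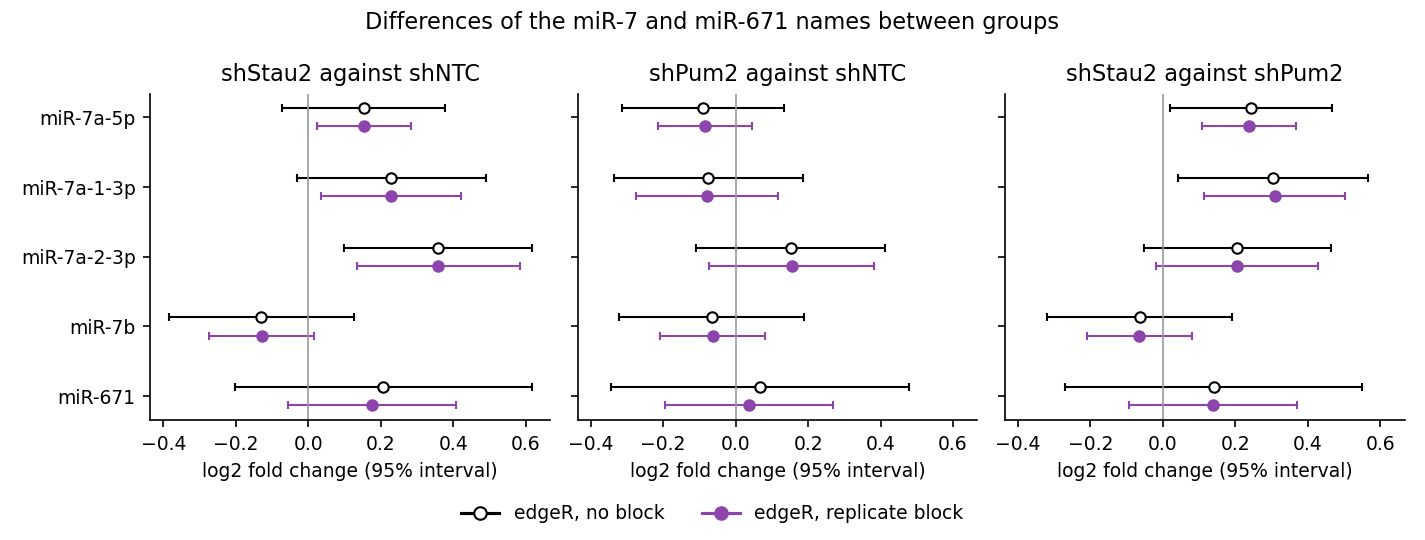
Log2 fold changes with 95% intervals of the 5 names in the 3 comparisons, from edgeR without a block (open) and with the replicate number as a block (filled). The intervals narrow with the block, least for miR-7a-2-3p, and in the comparison of shStau2 with shPum2 that of miR-7a-5p runs from 0.11 to 0.37.

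A ratio of counts within a library does not depend on scaling, and the ratio of the paralogs was lowest in shStau2, although no exact test of it passed after adjustment. Per 100 counts of miR-7a-5p there were 7.98, 8.66, 7.08 and 7.46 counts of miR-7b in shStau2, 9.91, 9.93, 8.67 and 9.93 in shPum2, and 10.2, 10.2, 8.61 and 8.99 in shNTC. Every shStau2 library lay below every shPum2 library, and only shStau2 replicate 2 lay above the lowest shNTC library. How many other miRNAs separate in this way relative to miR-7a-5p was not analysed here. In shStau2 against shPum2 with the block, miR-7b itself differed by a log2 fold change of -0.07 and miR-7a-5p by 0.24. The means were 7.80 ± 0.684, 9.61 ± 0.626 and 9.48 ± 0.801 (SD, n = 4). Counting error was small beside the distance of the shStau2 mean from the others. The share of miR-7b in the sum of both had 95% Wilson intervals of at most ± 0.256 percentage points, which cover counting error only. It was not small beside the gap that separates shStau2 from shPum2. There the interval of the share was 7.75 to 8.20% in shStau2 replicate 2 and 7.77 to 8.20% in shPum2 replicate 3.

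The log2 ratio of miR-7b to miR-7a-5p was lower in shStau2 than in shNTC by 0.35, 0.23, 0.28 and 0.27 in replicates 1 to 4, a mean difference of -0.28 (exact permutation p = 0.0571, two-sided, and adjusted p = 0.343 over 12 ratio tests). It was lower in shStau2 than in shPum2 by 0.31, 0.20, 0.29 and 0.41, a mean difference of -0.30. The exact permutation p was 0.0286, the smallest this design allows, and the adjusted p was 0.343. That smallest p rests on the separation of 8.66 from 8.67 per 100, which lies within counting error. Between shPum2 and shNTC the difference was 0.02 (exact permutation p = 0.971, adjusted p = 1.0), positive in 2 of 4 pairs. With 12 tests at a smallest p of 0.0286, neither difference passed after adjustment, and an exact sign-flip test over 4 pairs cannot go below 0.125, the value it gave for both.

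The same ratio was also fitted across all miRNAs, with edgeR and each library scaled to its own miR-7a-5p count, a step chosen after seeing the data. With the replicate block the ratio of miR-7b to miR-7a-5p then differed by -0.28 in shStau2 against shNTC (SE 0.08, 95% interval -0.46 to -0.11, edgeR adjusted p = 0.0328 over 627 miRNAs) and by -0.30 in shStau2 against shPum2 (SE 0.08, interval -0.48 to -0.13, adjusted p = 0.0119). Relative to miR-7a-5p many miRNAs differed in this way, 12.9% of all in the first comparison and 26.8% in the second, with medians over all miRNAs of -0.15 and -0.23. By p miR-7b ranked 55th and 83rd of the 627, so the lower ratio was not particular to it. Without the block neither passed (adjusted p = 0.486 and 0.241, with 0.478% and 0.797% of all called), and in shPum2 against shNTC the ratio differed by 0.02 (interval -0.15 to 0.20, adjusted p = 0.939 with the block). Since 1 base separates the paralogs, an unequal assignment of reads between them would move this ratio, and that was not tested.

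**Figure D4:**
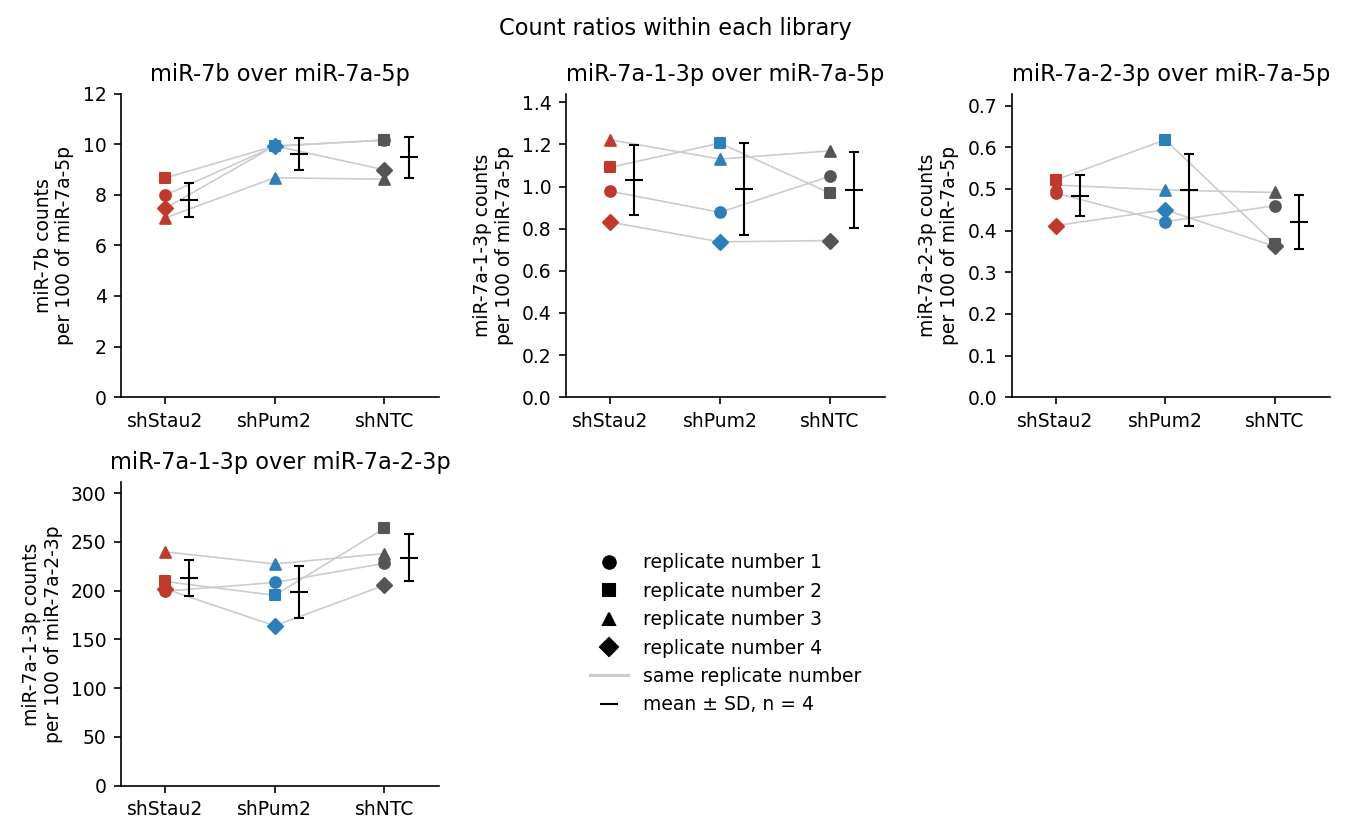
Counts of 1 strand per 100 counts of another within each library, for the miR-7 paralogs and the strands of the mir-7a hairpins; markers and grey lines follow replicate numbers, and black bars give the mean ± SD of 4 libraries. For miR-7b over miR-7a-5p the 4 shStau2 libraries lie between 7.08 and 8.66 and the 4 shPum2 libraries between 8.67 and 9.93.

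For the ratios of passenger to guide all groups overlapped and no test passed. Per 100 counts of miR-7a-5p there were 1.03 ± 0.166 counts of miR-7a-1-3p in shStau2, 0.988 ± 0.218 in shPum2 and 0.982 ± 0.179 in shNTC, with exact permutation p between 0.686 and 1.0 in the 3 comparisons. For miR-7a-2-3p there were 0.483 ± 0.0494, 0.497 ± 0.0867 and 0.420 ± 0.0653 counts in shStau2, shPum2 and shNTC (exact permutation p between 0.2 and 0.857). In shStau2 against shNTC that log2 ratio was higher in 4 of 4 same-number pairs, by 0.09, 0.50, 0.05 and 0.19, with a mean difference of 0.21 (exact sign-flip p = 0.125, the smallest 4 pairs allow, and adjusted p = 0.375). The guide comes from both hairpins, so the ratio at a single locus was not measured.

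The passenger strands can be compared with each other without the shared guide. Per 100 counts of miR-7a-2-3p there were 199, 209, 240 and 202 counts of miR-7a-1-3p in shStau2, 208, 195, 227 and 164 in shPum2, and 228, 264, 238 and 205 in shNTC. The mir-7a-1 strand was thus the more abundant in 12 of 12 libraries, and the groups overlapped. The log2 ratio differed by -0.14 in shStau2 against shNTC (exact permutation p = 0.257), by -0.24 in shPum2 against shNTC (p = 0.114, lower in 4 of 4 pairs) and by 0.10 in shStau2 against shPum2 (p = 0.4), and the adjusted p lay between 0.457 and 0.686 for these exact tests.

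miR-7 is a known substrate of target-directed decay, in which an extensively paired RNA triggers loss of the miRNA, and it was set beside 11 miRNAs linked to that route in mammals, miR-7a-5p and miR-7b among them. All 11 were tested, miR-335 under a name that does not state its strand, which was not analysed here. In shStau2 against shNTC 0 rose and 1 fell without the block, and 0 rose and 2 fell with it. Over all 628 miRNAs 0 rose and 2 fell without the block, and 15 rose and 24 fell with it. The median log2 fold change was -0.13 without the block, against 0.0033 over all miRNAs. That median is the value of miR-7b itself, so the list is not independent of the names followed here. The 2 that fell were miR-29b-3p, at 662 CPM in shStau2 and 1480 in shNTC (log2 fold change -1.16, SE 0.19, edgeR adjusted p = 0.00911 without the block), and miR-27a-3p, at 373 and 526 CPM (-0.51, SE 0.11, adjusted p = 0.0146 with the block, and 0.191 without it). In shStau2 against shPum2 1 rose and 1 fell with the block, miR-7a-5p and miR-29b-3p, against 10 and 15 of all 628. Without the block 0 rose and 1 fell, miR-29b-3p, against 0 and 3 of all 628. In shPum2 against shNTC 0 of the 11 passed with or without the block (0 with an adjusted p under 0.05 in edgeR). The list shares miR-27a-3p with the astrocyte markers above.

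Likeness was measured by the correlation of log2 CPM over the 12 libraries, among 228 further miRNAs with a mean of at least 100 CPM. The levels most like those of miR-7a-5p were those of miR-762 (Pearson r = 0.79, Spearman rho = 0.82), miR-485-3p (0.68 and 0.85) and miR-25-3p (0.61 and 0.63), against a median r of 0.0014 over the 228. Without shStau2 replicate 4 and shNTC replicate 4, the libraries farthest from the median of miR-7a-5p, r was 0.67, 0.48 and 0.32. Those most like miR-671 were miR-23a-5p (0.86 and 0.81), miR-5132-3p (0.84 and 0.80) and miR-34b-3p (0.82 and 0.87), against a median r of -0.14, and r was 0.80, 0.80 and 0.58 without replicate 2 of shStau2 and shPum2. These values describe libraries that share replicate numbers and depth, and were picked as the highest of 228, so no p-value is attached. Among the miR-7 names themselves, miR-7a-5p had a Pearson r of 0.08 with miR-7a-1-3p, 0.35 with miR-7a-2-3p and 0.50 with miR-7b. The passenger strands had an r of 0.61 with each other. With miR-7b it was -0.66 for miR-7a-1-3p and -0.27 for miR-7a-2-3p, so the 4 miR-7 names did not vary as 1 set.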

How the data were processed

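Small RNA was sequenced from 12 libraries of cultured rat cortical neurons, 4 each with shStau2, shPum2 and shNTC. The deposited values are whole-number counts per small RNA name, not normalised, with a table for each library. Per the labels' protocols the library kit adds unique molecular identifiers; the sources used here do not give the aligner, or whether molecules or reads were counted. Per the submitters' processing notes the genome build was Rnor 6.0.

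From these counts, edgeR 4.0.16 in R 4.3.3 was run on the 685 miRNA names (120 piRNA names left out): filterByExpr by group, TMM scaling, and the robust quasi-likelihood test of all 12 libraries in a joint fit, two-sided, Benjamini-Hochberg adjusted over 628 tested names and called at 0.05. DESeq2 1.42.0 was an alternative. Intervals are at 95%. Ratios used counts with a pseudocount of 0.5 and exact permutation tests over libraries (scipy 1.17.1). Log2 CPM for likeness used a prior count of 2. The edgeR fit was tested on simulated data.

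Whether replicate numbers pair libraries was checked by correlating deviations from group means across miRNAs: r lay between 0.36 and 0.57 for the 12 same-number pairs and between -0.41 and 0.14 for the 36 others, so the numbers were used as a block (every same-number pair above 0.1). The labels do not say what a number shares. The series' design text calls the replicates biological, and nothing further about separate cultures is given. No libraries of a group agreed within sampling noise.

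The names were all those matching the rule; beside them stood miRNAs sharing a seed, a list of 11 decay-linked miRNAs, cell type marker lists, and the 3 miRNAs most alike in pattern. The members and lists were chosen with earlier results of these data known. Sequences are RefSeq's for GRCr8, which held 613 of the 685 miRNA names.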

Additional observations from a re-analysis of the deposited data

Results flagged for a closer look

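Among 27 sets of 4 libraries 3 held a library far from the other 3 by Dixon's gap criterion, which chance meets in about 1 set in 20. In shNTC, replicate 2 was the lowest library for miR-7a-2-3p, at 43.7 CPM beside 55.7 to 56.4 CPM in the other 3. The same library was the highest of shNTC for miR-671, at 55.8 CPM beside 49.1 to 50.3 CPM, just past the criterion. In shPum2, replicate 3 had the lowest ratio of miR-7b to miR-7a-5p, at 8.67 per 100, beside 9.91 to 9.93 per 100 in the other 3. Without shNTC replicate 2 the log2 fold change of miR-7a-2-3p in shStau2 against shNTC was 0.27 (edgeR adjusted p = 0.469), and without shPum2 replicate 3 the paralog ratio differed by -0.35 in shStau2 against shPum2 (exact permutation p = 0.0571). With all libraries that difference was -0.30 (exact permutation p = 0.0286). The test has fewer splits with 1 library left out, so these p-values cannot be compared directly.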

How the results depend on the processing

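The log2 fold changes of the 5 names kept their sign in all 3 comparisons under every change of scaling, filter, tool, libraries fitted or block that kept all replicates of the groups compared, and 0 of 5 names were called in shPum2 against shNTC throughout. The count of called names was 1 in shStau2 against shNTC with the replicate block under RLE or upper-quartile scaling, in place of 0. In shStau2 against shPum2 it was 1 with the replicate block under TMM or RLE scaling, 2 under upper-quartile scaling or DESeq2 with the block, and 0 to 2 without 1 replicate number. Over all miRNAs the replicate block gave 39, 1 and 25 calls in shStau2 against shNTC, shPum2 against shNTC and shStau2 against shPum2, in place of 2, 0 and 3. With RLE scaling the block gave 43, 1 and 27, with upper-quartile scaling 38, 1 and 40, with library totals 39, 1 and 26, and with DESeq2 38, 2 and 34. Of the block's 39 calls 15 were higher, against 7 with library totals and 21 of 38 with upper-quartile scaling, and of its 25 calls 10, against 5 of 26 and 26 of 40. DESeq2 without the block gave 18, 0 and 7, and upper-quartile scaling or a fit of the 8 libraries alone 0 in shStau2 against shPum2. Leaving out 1 library gave 1 to 3, 0 to 0 and 0 to 4 calls, and 1 replicate number with the block 5 to 27 (23 without number 1 or 2), 0 to 2 and 6 to 51.

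Without 1 library the log2 fold change of miR-671 ran from -0.0012 to 0.31 in shStau2 against shNTC, from -0.084 to 0.19 in shPum2 against shNTC (-0.058 to 0.16 without 1 number in the block, and -0.013 without number 4) and from -0.068 to 0.29 in shStau2 against shPum2, the low ends without replicate 2. In shPum2 against shNTC it ran from -0.14 to 0.0076 for miR-7a-1-3p, from -0.14 to 0.013 for miR-7a-5p and from -0.15 to 0.0060 for miR-7b, and in shStau2 against shPum2 from -0.12 to 0.0033 for miR-7b. The log2 ratio of miR-7b to miR-7a-5p ran from -0.33 to -0.24, from -0.024 to 0.070 and from -0.36 to -0.26 in the 3 comparisons. That of miR-7a-1-3p to miR-7a-5p ran from -0.054 to 0.17, -0.13 to 0.13 and -0.058 to 0.18, and that of miR-7a-2-3p to miR-7a-5p from -0.10 to 0.080 in shStau2 against shPum2. With the replicate block as a sign-flip test over pairs, no ratio passed (adjusted p = 0.375 for miR-7b over miR-7a-5p in both shStau2 comparisons). The ratio passed in edgeR with libraries scaled to miR-7a-5p and the replicate block, at -0.28 and -0.30. Counts a library were 189 to 356 for miR-671 and 202 to 330 for miR-7a-2-3p, and the within-group SD of log2 CPM was 0.30 and 0.14. The cause of the shifts between settings or without single libraries was not tested.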
